A study of Oryctolagus cuniculus with 24 samples.

Results

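The 89 genes described here were higher in the caecum of rabbits that had received whipworm ova and then dextran sodium sulphate (DSS), both in epithelial cells (EC) and in lamina propria mononuclear cells (LPMC). Of the 17318 genes deposited they made up 0.514%. A gene was a member when the mean of log2(CPM + 1) was more than 1 above that of the vehicle rabbits in both cell types and every treated library lay above every vehicle library, while ova alone gave a change of at most 1 in at least 1 cell type. CPM is the gene's share of the library's reads, as counts per 1000000 reads. Genes of the mitochondrial genome were not eligible, and 5 further genes were left out by the rule. The values that chose the members are therefore those of TSO DSS against Veh Water, and the upper limit set on TSO Water. They are given below as a description, without a test.

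RNA was sequenced from the caecum of 12 young New Zealand White rabbits, 3 in each of 4 groups, with 1 EC and 1 LPMC library per rabbit and 24 libraries in all. All rabbits drank fennel tea in place of water. Veh Water rabbits (Control with Vehicle in the labels) received vehicle and tea only. TSO Water rabbits received 3 intragastric doses of 2500 Trichuris suis ova (TSO), Veh DSS rabbits received vehicle and then 0.1% DSS in the tea for 5 days from day 26, and TSO DSS rabbits received the ova and then the same course of DSS. All were killed on day 35. EC were shaken off the tissue with EDTA, and LPMC (LPL in the labels) came from the collagenase digest of the rest, including the muscle layer, after a density gradient. The 2 fractions are mixtures and were not sorted by a marker. Genes were deposited under Ensembl rabbit identifiers with a chromosome and a strand, without symbols or positions. None of the identifiers matched the RefSeq table at hand, with 0 of 17318 found, so the members are named by identifier and chromosome, no role is given for any of them, and the labels of the 2 fractions could not be checked against marker genes.

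The caecal epithelium is a single layer of absorptive, mucus-secreting and other specialised cells that separates the gut contents from the tissue, and the lamina propria below it holds T cells, B and plasma cells, macrophages, dendritic cells and granulocytes. DSS is a sulphated polysaccharide that damages this layer, so that bacteria and their products reach the tissue and neutrophils and monocytes enter it. Trichuris suis is the whipworm of pigs, whose larvae lie in the caecal and colonic epithelium. Whipworms are known for type 2 immune responses with eosinophils and goblet cell mucus. In RNA of a mixed fraction, more RNA per cell and more cells of one kind cannot be told apart, which holds for every difference below.

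EC libraries held 13148536 to 27479983 reads and LPMC libraries 3685522 to 15770386 reads, the smallest being LPMC of TSO DSS rabbit 3. The mitochondrial share of the reads ran from 12.4% to 46.5% in EC and was at least 9.06% in LPMC, with the highest value in EC of TSO DSS rabbit 3. The median gene present in EC shifted by -0.21 in TSO DSS, -0.20 in TSO Water and -0.10 in Veh DSS on the log2(CPM + 1) scale. In LPMC the corresponding shifts were 0.05, 0.02 and 0.05. The members' changes in EC should be read against these. Veh Water rabbit 1 and TSO Water rabbit 2 were kept in another room than the rest, and all rabbits given DSS were in the first room. With that control rabbit left out, the members' median change in TSO DSS was 2.11 in EC and 2.00 in LPMC. The rule had already used these libraries, so the medians do not test a part of the room. The 3 rabbits of a group were separate animals.

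In TSO DSS the members lay above Veh Water in EC by a median of 2.17 on the log2(CPM + 1) scale, with a range of 1.00 to 6.28 and the middle of the members between 1.54 and 3.25. In LPMC the median was 1.91, the range 1.00 to 5.85 and the middle of the members between 1.27 and 2.43. These values follow from the rule. Among all genes marked present, 4.39% met the change and the separation in EC, 2.8% met both in LPMC, and 1.08% met all of it. All 89 members were marked as present by the authors in both TSO DSS tables. In EC of Veh Water, 5 members had at most 3 reads in every library, and 3 members did in LPMC. With those groups set to 3 reads per library the EC median was 2.11 and the LPMC median stayed at 1.91. The change was larger in EC than in LPMC for 52 of the 89 members, against 37.8% of all genes.

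The threshold of 1 cut through a continuous range. ENSOCUG00000002595 on chromosome 11 and ENSOCUG00000014896 on chromosome 13 were just inside in EC, with changes of 1.00 and 1.03. ENSOCUG00000012369 on chromosome 2 and ENSOCUG00000025476 on chromosome 13 were just outside, with changes of 0.95 and 0.93. In LPMC, ENSOCUG00000015820 on chromosome 2 and ENSOCUG00000025236 on chromosome 9 were just inside, with changes of 1.00 and 1.01, and ENSOCUG00000007816 on chromosome 13 and ENSOCUG00000023091 on chromosome 12 were just outside, with 0.99 and 0.96.

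Members came from 19 chromosomes. Chromosome 2 held 12 of them, 13.5% of the members against 6.68% of all genes deposited, and chromosome 13 held 10, which is 11.2% against 9.16%. Chromosome 6 held 5 members among only 263 genes, 5.62% against 1.52%. No member lay on chromosomes 5, 20 or 21. Gene positions were not used here, so that neighbouring or overlapping members could not be recognised. One group was visible from the reads themselves. ENSOCUG00000018026, ENSOCUG00000023538 and ENSOCUG00000027589, all on the plus strand of chromosome 19, differed by at most 1 read in every library. Their counts cannot be told apart, so that they count as 3 members but give 1 set of values; whether they share reads was not examined. For ENSOCUG00000018026, EC held 13.9, 4.80 and 6.77 CPM in Veh Water and 50.4, 26.7 and 28.9 CPM in TSO DSS.

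**Figure D1:**
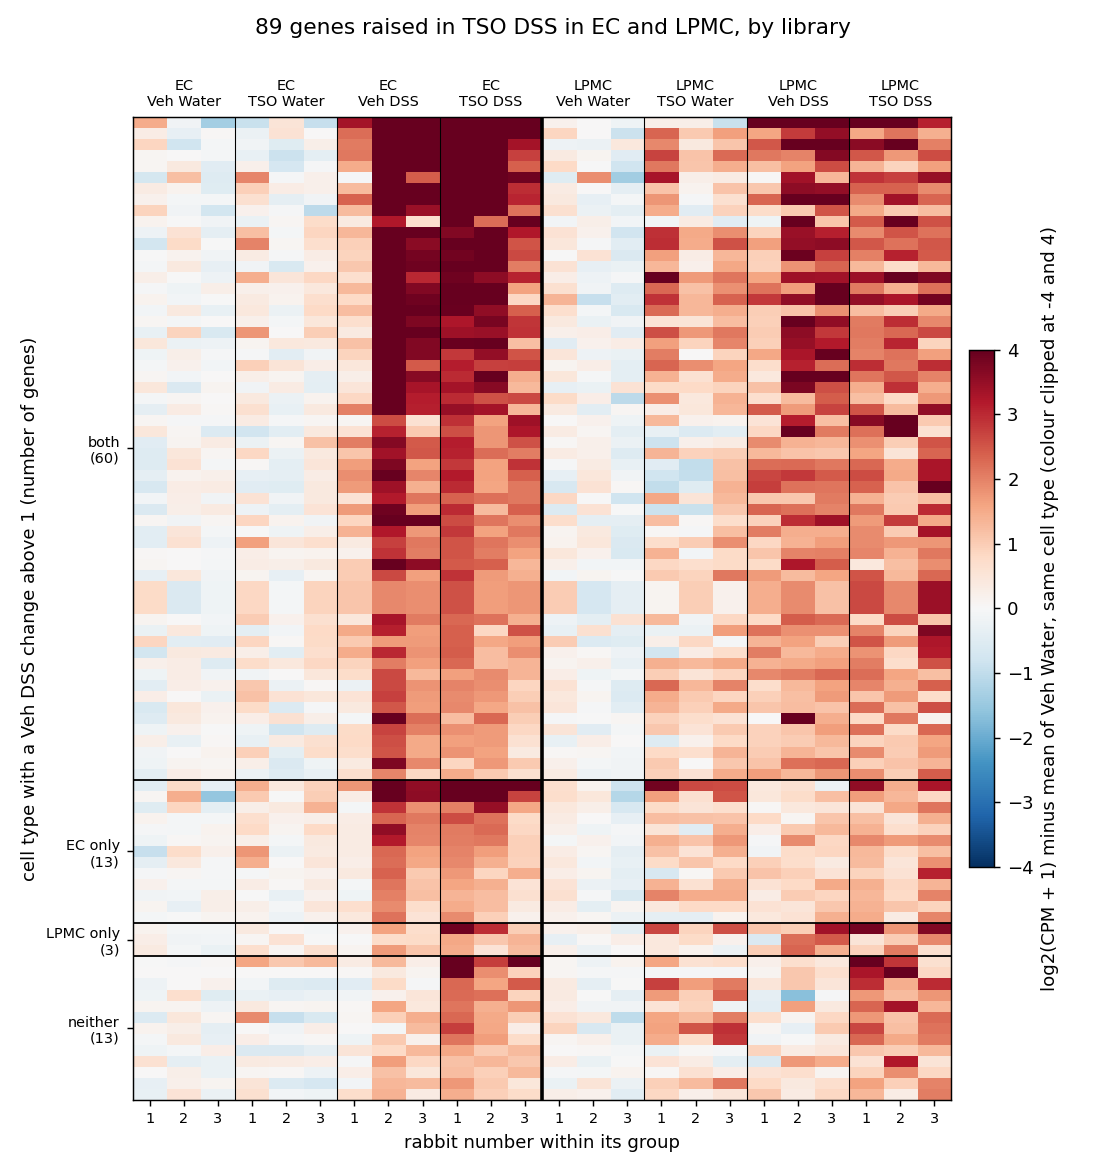
Each row is 1 of the 89 member genes and each column 1 library, with colour for log2(CPM + 1) minus the mean of Veh Water in the same cell type, clipped at -4 and 4. Rows are grouped by the cell type in which the Veh DSS change exceeded 1 (60 in both, 13 in EC only, 3 in LPMC only, 13 in neither), and within the EC Veh DSS block the column of rabbit 1 is the palest.

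The members lay higher in LPMC than in EC before any treatment. In Veh Water the mean CPM was higher in LPMC for 78 of the 89 members, against 43.4% of all genes present in both tables. Within single rabbits of this group, LPMC exceeded EC for 82, 66 and 75 members, and the median of EC minus LPMC was -0.999, -0.78 and -0.52. The same median over all present genes lay between 0.08 and 0.15. Against this stood 42.0%, 45.3% and 44.4% of all present genes in the 3 rabbits. The rule used the Veh Water libraries of both cell types, so these values are a description. The depth behind these values was modest, since the 3 Veh Water libraries together held a median of 138 reads per member in EC and 250 in LPMC.

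The 5 members with the highest mean CPM over all libraries, which is not corrected for gene length, included 3 of this kind. ENSOCUG00000011835 on chromosome 15 held 7.42, 4.38 and 6.01 CPM in EC of Veh Water and 510.9, 284.1 and 157.3 CPM in LPMC of the same rabbits. ENSOCUG00000023958 on chromosome 2 held 19.7, 24.8 and 13.6 CPM in EC and 606.9, 348.0 and 202.2 CPM in LPMC. ENSOCUG00000010109 on chromosome 1 was nearer to equal, with 63.4, 79.8 and 70.3 CPM in EC and 412.7, 208.8 and 271.6 CPM in LPMC. For each of the 3, every LPMC value exceeded every EC value.

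The other 2 of these 5 had low levels in both fractions before treatment. ENSOCUG00000022646 on chromosome 13 held 16.6, 4.71 and 1.45 CPM in EC of Veh Water and 3.42, 2.94 and 2.51 CPM in LPMC. Under TSO DSS it reached 827.0, 1319 and 104.5 CPM in EC and 195.3, 1809 and 32.0 CPM in LPMC. ENSOCUG00000009566, also on chromosome 13, held 23.7, 6.90 and 11.9 CPM in EC and 6.98, 6.86 and 11.2 CPM in LPMC of Veh Water. It reached 396.9, 1129 and 134.8 CPM in EC of TSO DSS and 110.0, 974.4 and 36.4 CPM in LPMC. In both cell types and for both genes, rabbit 2 was highest and rabbit 3 lowest.

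These 2 were also the members with the largest change in the cell type where they changed less, as the order used to name genes required. The 6 that followed were ENSOCUG00000001230, ENSOCUG00000007233, ENSOCUG00000006097, ENSOCUG00000011027, ENSOCUG00000013412 and ENSOCUG00000017432. ENSOCUG00000001230 on chromosome 2 went from 1.09, 0.746 and 0.532 CPM in EC of Veh Water to 25.4, 20.0 and 13.9 CPM in TSO DSS, and from 1.14, 0.534 and 0.717 CPM to 18.2, 31.7 and 22.5 CPM in LPMC. ENSOCUG00000006097 on chromosome 6 was below 0.7 CPM in all 6 Veh Water libraries and lay at 22.4, 4.64 and 47.2 CPM in EC and 6.64, 25.3 and 7.05 CPM in LPMC of TSO DSS. ENSOCUG00000017432 on chromosome 13 had one of the tighter groups, with 60.8, 45.9 and 46.7 CPM in EC of TSO DSS against 5.64, 6.95 and 5.48 CPM in Veh Water.

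The first question the design allows is what DSS did without ova. The libraries of Veh DSS were not used to choose the members, but those of Veh Water were, and members were picked for being low in them, so the counts below are not support for a response to DSS. All 3 treated groups of a cell type were set against the same 3 Veh Water libraries. The change from Veh Water to Veh DSS was above 1 for 73 members in EC, against 5.02% of all present genes, and for 63 members in LPMC, against 2.46%. It was above 1 in both cell types for 60 members, against 1.56%. The members' median change was 1.82 in EC, with a range of 0.08 to 7.30, and 1.52 in LPMC, with a range of -0.70 to 7.40. All Veh DSS libraries lay above all Veh Water libraries for 66 members in EC, against 5.67% of all genes, and for 66 in LPMC, against 12.5%. Both the separation and a change above 1 were found in both cell types for 50 members, against 0.768%. The change was larger in EC than in LPMC for 73 of the 89, against 36.3% of all genes.

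The largest mean change over both cell types in Veh DSS belonged to ENSOCUG00000022646, ENSOCUG00000009566, ENSOCUG00000022836 and ENSOCUG00000011835. ENSOCUG00000022646 held 62.0, 7389 and 2056 CPM in EC of Veh DSS and 78.5, 2809 and 1321 CPM in LPMC. ENSOCUG00000009566 held 57.1, 7129 and 1038 CPM in EC and 50.5, 2995 and 751.8 CPM in LPMC. For both genes rabbit 1 was far below rabbits 2 and 3 of its group in both cell types, and still above every Veh Water library.

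ENSOCUG00000022836 on chromosome 8, at no more than 1.35 CPM in any Veh Water library, held 7.21, 370.8 and 87.6 CPM in EC of Veh DSS and 8.09, 158.3 and 59.1 CPM in LPMC. Under TSO DSS it held 27.7, 42.7 and 12.3 CPM in EC and 5.68, 17.4 and 8.14 CPM in LPMC. ENSOCUG00000011835 held 31.0, 2674 and 696.9 CPM in EC of Veh DSS and 847.5, 1973 and 3247 CPM in LPMC. Its LPMC groups were separate too, but by much less, since LPMC of Veh Water already reached 510.9 CPM.

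limma on log2(deposited value + 1), fitted across all present genes of each table, tested Veh DSS against Veh Water. The rule used the same Veh Water libraries, so the members' counts and p-values from these fits are not support for a response to DSS. Genes were called when the log2 fold change exceeded 1 in size at a Benjamini-Hochberg adjusted p under 0.05. In EC, limma called 0 of the 88 members tested, against 0.0268% of all genes called higher and 0.0625% called lower, and the smallest adjusted p among them was 0.28. At an unadjusted p under 0.05 and the same size of change, 70 of the 88 members were higher, against 5.22% of all genes, and 0 were lower, against 1.22%. edgeR's quasi-likelihood test on the recovered reads also called 0, with 0% of all genes called higher, and DESeq2 called 62, with 3.43% of all genes. Without Veh DSS rabbit 1, limma called 38 of the 88 members higher, against 2.2% of all genes in that fit, so that the count in EC depended on this library as well as on the test. The members' median log2 fold change in this fit was 2.69 and became 3.31 without that rabbit and 1.96 without rabbit 2. The member not tested was ENSOCUG00000021762.

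The Veh Water libraries of the LPMC fit were likewise among those that chose the members. In LPMC, limma called 4 of the 89 members, all higher in Veh DSS, against 0.0624% of all genes called higher, and 60 were higher at an unadjusted p under 0.05, against 2.17%, with 0 lower, against 3.24%. The 4 were ENSOCUG00000007941 on chromosome 1, ENSOCUG00000006462 on chromosome 16, ENSOCUG00000009034 on chromosome 13 and ENSOCUG00000013916 on chromosome 6. ENSOCUG00000007941 held 7.55, 10.1 and 6.09 CPM in Veh Water and 40.2, 41.5 and 36.4 CPM in Veh DSS, with a log2 fold change of 2.29 ± 0.19 (SE, n = 3 rabbits per group, limma adjusted p = 0.037). ENSOCUG00000006462 held 4.27, 8.01 and 5.02 CPM in Veh Water and 40.8, 46.0 and 35.0 CPM in Veh DSS, with a log2 fold change of 2.80 ± 0.27 (SE, limma adjusted p = 0.040).

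ENSOCUG00000009034 held 9.33, 11.1 and 10.1 CPM in LPMC of Veh Water and 35.1, 25.9 and 32.7 CPM in Veh DSS, with a log2 fold change of 1.56 ± 0.16 (SE, limma adjusted p = 0.040). ENSOCUG00000013916 held 31.3, 21.6 and 22.5 CPM in Veh Water and 82.0, 64.2 and 87.1 CPM in Veh DSS, with a log2 fold change of 1.59 ± 0.17 (SE, limma adjusted p = 0.042). Each of the 4 had all Veh DSS values above all Veh Water values. By contrast ENSOCUG00000022646, the member with the largest change, had a log2 fold change of 7.74 ± 1.26 (SE) in LPMC and a limma adjusted p of 0.15. The 4 calls fell to 0 when Veh Water rabbit 2 or 3 or Veh DSS rabbit 2 or 3 was left out, and 12 members, 1 of them among the 4, were called without Veh DSS rabbit 1, against 0.259% of all genes called higher. They also fell to 0 with all 12 LPMC libraries in the fit, with limma adjusted p-values of 0.27 to 0.31 and log2 fold changes of 2.25, 2.75, 1.52 and 1.55 in the order in which the genes are listed. With 1 rabbit left out the log2 fold change ran from 2.18 to 2.46 for ENSOCUG00000007941, from 2.58 to 3.04 for ENSOCUG00000006462, from 1.46 to 1.65 for ENSOCUG00000009034 and from 1.47 to 1.72 for ENSOCUG00000013916. CPM scaling and a pseudocount of 0.1 each ended the calls of ENSOCUG00000009034 and ENSOCUG00000013916. edgeR's quasi-likelihood test called 1 member, ENSOCUG00000007941, against 0.00891% of all genes, and DESeq2 called 53, against 1.19%.

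**Figure D2:**
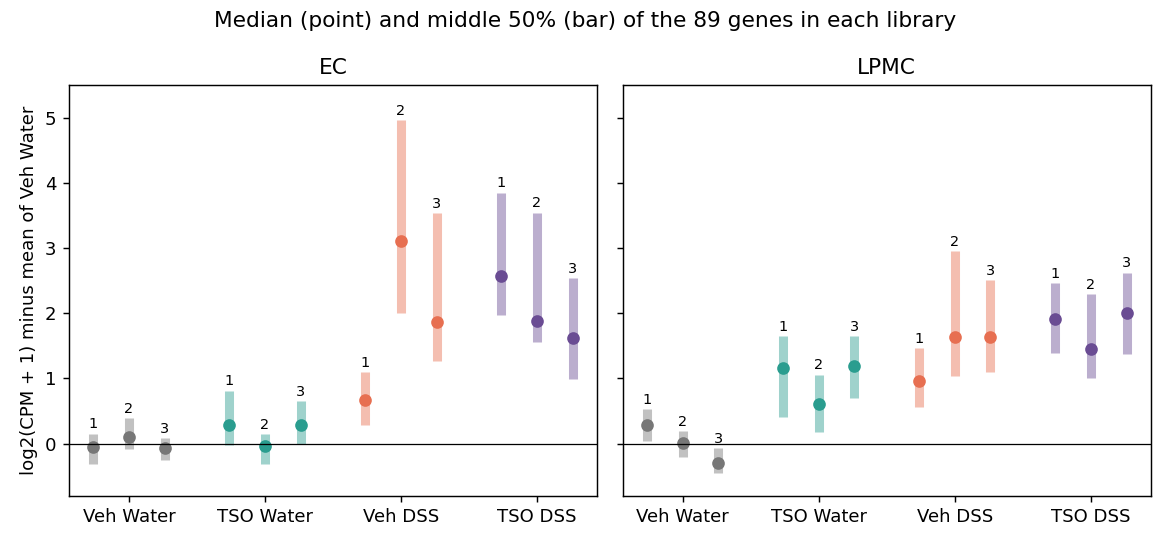
Median (point) and middle 50% (bar) of the 89 members in each library, as log2(CPM + 1) minus the mean of Veh Water of the same cell type, numbered by rabbit. In EC the Veh DSS medians run from 0.67 in rabbit 1 to 3.10 in rabbit 2, while the 3 TSO DSS medians lie between 1.62 and 2.56.

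In EC of Veh DSS most members gave the same order of the rabbits. In EC of Veh DSS the median of the members over the Veh Water mean was 0.67 in rabbit 1, 3.10 in rabbit 2 and 1.87 in rabbit 3. The mitochondrial share of the same libraries ran in the opposite order, at 29.9%, 12.4% and 14.2%, against 20.1% to 21.0% in EC of Veh Water, and its part in the members' values was not tested. With mitochondrial genes left out of the scaling, the members' median log2 fold change was 1.93, against 1.88 with CPM scaling, and limma called 0 members in EC under each. These values are taken over all 3 rabbits and do not address their order. Rabbit 2 was the highest of the 3 for 83 of the 89 members, against 32.8% of all present genes, and rabbit 1 was the lowest for 83, against 39.3%. In LPMC of the same rabbits the medians were 0.96, 1.63 and 1.63, and rabbit 1 was the lowest for 57 members, against 26.3% of all genes, while the highest value was in rabbit 1, 2 or 3 for 13, 38 and 38 members, against 44.96%, 19.6% and 35.4% of all genes. In EC of Veh Water the highest value was split over the 3 rabbits as 32, 42 and 15, against 39.6%, 36.8% and 23.7%. The members' median SD over the 3 rabbits was 1.205 on the log2(CPM + 1) scale in EC of Veh DSS, against 0.29 for all genes, and 0.33 in EC of Veh Water, against 0.22.

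In TSO DSS the EC medians were 2.56, 1.88 and 1.62 and the LPMC medians 1.91, 1.45 and 2.00. Rabbit 1 was highest in EC for 55 members, against 36.3% of all genes. Rabbit 3 was lowest in EC for 62 members, against 73.5% of all genes, so that this order was near the background. Its EC library had the highest mitochondrial share, whose part was not tested. In LPMC, rabbit 3 was highest for 46 members, against 31.2%, and rabbit 2 lowest for 54, against 35.2%. The members' median SD was 0.64 in EC and 0.68 in LPMC.

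Genes that are much higher in LPMC than in EC before treatment varied among the EC libraries as well. A list of 166 such genes, none of them a member, was drawn from these data (over 3 higher on the log2(CPM + 1) scale in Veh Water, without overlap). Their summed level was 3821 to 4966 CPM in EC of Veh Water and 2142 to 5215 CPM in EC of TSO Water. In EC of Veh DSS it was 4432, 19847 and 7824 CPM in rabbits 1, 2 and 3, the same order as the members' medians. In EC of TSO DSS it was 13258, 12508 and 4361 CPM. Its part in the members' EC values was not tested. The sum was within the range of Veh Water in EC of Veh DSS rabbit 1, where the members' median was 0.67, and in EC of TSO DSS rabbit 3, where it was 1.62. The list was chosen for genes that were low in EC of Veh Water, so that range depends on the choice. The median change of the list's single genes from Veh Water was 0.17, 0.92 and 0.80 in EC of Veh DSS and 0.84, 1.93 and -0.14 in EC of TSO DSS, an order other than that of the sums in TSO DSS. In LPMC the summed level was 84064 to 165849 CPM in Veh Water, 88226, 78265 and 87184 CPM in Veh DSS and 137724, 46692 and 130322 CPM in TSO DSS, so that 2 of 3 libraries of each lay within the range of Veh Water. The median change of the single genes in LPMC was -0.52, -1.25 and -0.44 in Veh DSS and -1.69, -1.58 and -2.03 in TSO DSS. Which cells these genes mark could not be named without symbols.

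The second question is what the ova did alone. The rule limited this change to at most 1 in 1 cell type and left the other free. In EC of TSO Water the members' median change was 0.19, with a range of -0.51 to 1.31, and 1 member was above 1, against 0.885% of all present genes. In LPMC the median was 0.89, with a range of -0.43 to 3.03, and 40 members were above 1, against 2.47%. TSO Water lay above Veh Water without overlap for 10 members in EC, against 0.958%, and for 44 in LPMC, against 8.07%. The change was larger in LPMC than in EC for 70 of the 89, against 76% of all genes, so that this order was near the background. The TSO Water and Veh Water libraries were both used by the rule. The LPMC medians were 1.16, 0.61 and 1.19 in the 3 TSO Water rabbits, and rabbit 2 was the one kept in the other room.

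ENSOCUG00000013412 on chromosome 19 had the largest of these LPMC changes. It held 148.8, 103.3 and 52.1 CPM in LPMC of Veh Water, 1349, 584.2 and 572.5 CPM in TSO Water, 125.2, 143.2 and 79.0 CPM in Veh DSS and 1101, 254.1 and 902.5 CPM in TSO DSS. The libraries with ova thus lay above all libraries without, and DSS alone left LPMC within the range of Veh Water. In EC it held 5.64, 13.9 and 6.01 CPM in Veh Water, 23.3, 10.8 and 15.7 CPM in TSO Water, 28.8, 268.0 and 101.6 CPM in Veh DSS and 1162, 349.9 and 170.8 CPM in TSO DSS. In EC the Veh DSS libraries were all above Veh Water.

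ENSOCUG00000001230 held 43.4, 4.77 and 6.89 CPM in LPMC of TSO Water, with rabbit 1 far above the others, and 3.83, 1.498 and 2.17 CPM in EC. ENSOCUG00000007233 on chromosome 4 had a lower mean in Veh Water than in each treated group in LPMC, going from 19.1, 3.12 and 4.84 CPM in Veh Water to 56.6, 18.5 and 39.4 CPM in TSO Water, where the groups overlapped, 55.3, 90.7 and 206.6 CPM in Veh DSS and 88.4, 74.1 and 112.9 CPM in TSO DSS. In EC it was below 1 CPM in all libraries of Veh Water and TSO Water. ENSOCUG00000017432 held 53.7, 38.2 and 31.6 CPM in LPMC of TSO Water against 10.7, 12.2 and 7.35 CPM in Veh Water. The single member above 1 in EC, named here for that value, was ENSOCUG00000022526 on chromosome 18. It had 2.31, 1.34 and 1.72 CPM in EC of TSO Water against at most 0.152 CPM in Veh Water.

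For 20 of the 89 members the TSO Water change was within 0.5 of 0 in both cell types. Their median change in Veh DSS was 1.60 in EC and 1.59 in LPMC, and in TSO DSS 2.05 and 2.06. ENSOCUG00000022646 was one of them, at 2.38, 7.87 and 2.32 CPM in EC and 3.59, 3.65 and 1.11 CPM in LPMC of TSO Water. For the 40 members above 1 in LPMC of TSO Water, the median change in Veh DSS was 2.43 in EC and 1.43 in LPMC. The 2 sets differ by the choice of members, and their difference was not tested.

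**Figure D3:**
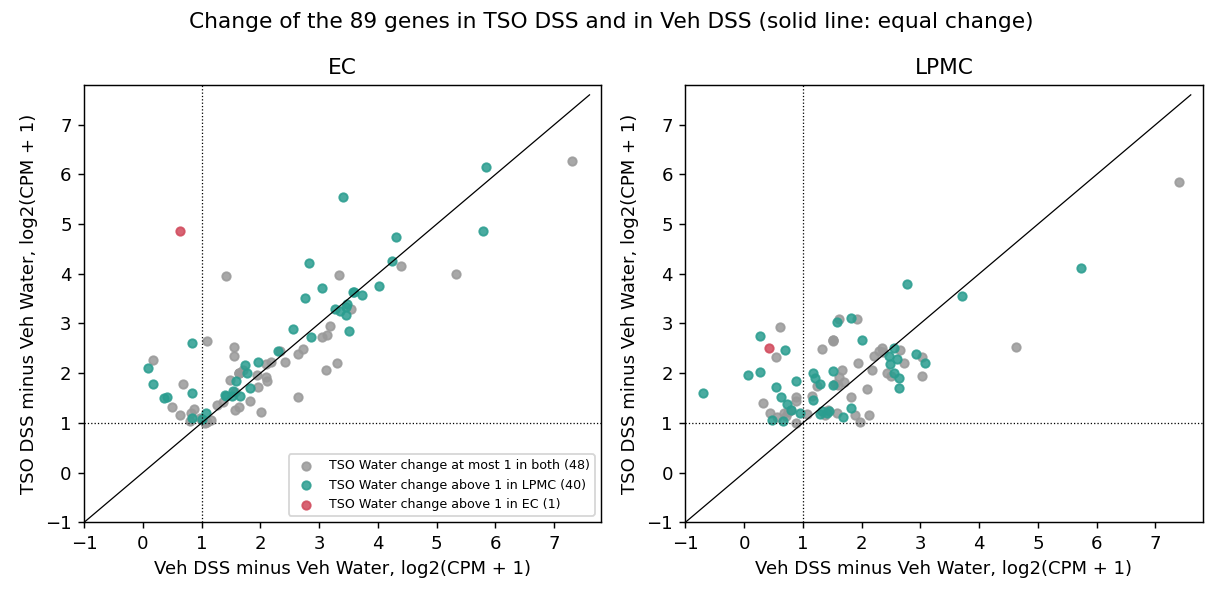
Change of the 89 members from Veh Water in Veh DSS (x) and in TSO DSS (y), on the log2(CPM + 1) scale, in EC and LPMC, coloured by the TSO Water change. Both axes share the Veh Water libraries, every member lies above 1 on the y axis by the rule, and 16 members in EC and 26 in LPMC lie at or below 1 on the x axis.

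The third comparison, TSO DSS against Veh DSS, asks what the ova added to DSS. TSO DSS values chose the members, so that it is a description. The median of TSO DSS minus Veh DSS was 0.08 in EC and 0.25 in LPMC, and 55 members were above 0 in each cell type. In EC 72 members, and in LPMC 66, were within 1 in either direction. TSO DSS was higher by more than 1 for 12 members in EC, against 1.06% of all present genes, and for 19 in LPMC, against 0.91%. It was lower by more than 1 for 5 members in EC, against 0.897%, and for 4 in LPMC, against 9.25%. All TSO DSS libraries exceeded all Veh DSS libraries for 5 members in EC, against 1.11%, and for 16 in LPMC, against 8.21%, and 0 had all TSO DSS libraries below, against 4.09% in EC and 7.19% in LPMC.

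All 12 members higher by more than 1 in EC were also higher by more than 1 in LPMC, against 0.414% of all genes in both. They included ENSOCUG00000006097, ENSOCUG00000011027 and ENSOCUG00000013412 and all 4 members with the smallest mean change in Veh DSS. Those 4 were ENSOCUG00000001853 on chromosome 14, ENSOCUG00000010971 on chromosome 7, ENSOCUG00000006037 on chromosome X and ENSOCUG00000017300 on chromosome 15. ENSOCUG00000001853 held 1.24, 1.63 and 1.90 CPM in EC of Veh Water, 0.897, 3.33 and 1.47 CPM in Veh DSS and 11.7, 6.68 and 13.1 CPM in TSO DSS. In LPMC it held 3.28, 1.60 and 2.24 CPM in Veh Water, 21.0, 9.63 and 13.0 CPM in TSO Water, 3.67, 5.96 and 3.67 CPM in Veh DSS and 24.6, 8.03 and 25.2 CPM in TSO DSS. Its TSO DSS libraries thus exceeded all Veh DSS libraries in both cell types.

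ENSOCUG00000017300 was the only other member with that separation in both cell types. It held 0.56, 0.923 and 1.40 CPM in EC of Veh DSS against 7.25, 6.98 and 2.16 CPM in TSO DSS, and 1.94, 0.19 and 2.63 CPM in LPMC of Veh DSS against 11.5, 8.17 and 11.9 CPM in TSO DSS. Its LPMC change in Veh DSS, -0.70, was the one negative value among the members. ENSOCUG00000010971 held 11.4, 3.54 and 7.87 CPM in LPMC of TSO DSS against 1.08, 0.571 and 3.05 CPM in Veh DSS, and ENSOCUG00000006037 held 9.78, 5.28 and 8.14 CPM against 0.97, 1.14 and 1.80 CPM. In EC both overlapped between these groups. All 4 were above 1 in LPMC of TSO Water, with changes of 2.17, 2.35, 1.69 and 1.67 in the order in which they are listed.

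ENSOCUG00000022526 and ENSOCUG00000021762, named here for their values, were at most at 2.48 CPM and 1.14 CPM in any library outside TSO DSS. ENSOCUG00000022526 held 0.411, 1.74 and 0.35 CPM in EC of Veh DSS and 81.0, 6.59 and 52.9 CPM in TSO DSS. In LPMC it held 17.8, 7.30 and 0.814 CPM in TSO DSS, the last being the shallow library and within the range of TSO Water and Veh DSS. ENSOCUG00000021762 on chromosome 12 had 0 reads in all EC libraries of Veh Water and TSO Water. Its EC values in TSO DSS were 14.9, 2.60 and 0.91 CPM, a mean at least 38.5-fold higher than 3 reads per Veh Water library. In LPMC it held 0.108, 1.14 and 0.623 CPM in Veh DSS and 8.81, 26.1 and 0.814 CPM in TSO DSS, where the groups overlapped. ENSOCUG00000006097 was carried in Veh DSS by rabbit 2, with 0.523, 9.95 and 0.909 CPM in EC and 0.216, 37.6 and 2.01 CPM in LPMC. ENSOCUG00000011027 on chromosome 16 showed the same order, with 0.785, 126.6 and 8.88 CPM in EC and 2.91, 37.7 and 8.38 CPM in LPMC of Veh DSS. In TSO DSS it was even, with 35.0, 40.5 and 26.6 CPM in EC and 27.2, 23.8 and 41.2 CPM in LPMC.

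On the other side, ENSOCUG00000022646 and ENSOCUG00000022836 had a TSO DSS mean more than 1 below that of Veh DSS in both cell types, as had 0.735% of all genes. Their values given above overlapped between these 2 groups in each cell type. Taking all 3 treatments, the TSO DSS change exceeded both single changes for 55 members in EC, against 18% of all genes, and 49 in LPMC, against 38.4%, though members were chosen for a high TSO DSS change and a limited TSO Water change. The Veh DSS change was at least as large as that of TSO DSS, and at least as large as that of TSO Water, for 34 members in EC, against 54.7% of all genes, and 33 in LPMC, against 28.6%. The TSO Water change was the largest of the 3 for 0 members in EC, against 27.3%, and 7 in LPMC, against 33%.

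**Figure D4:**
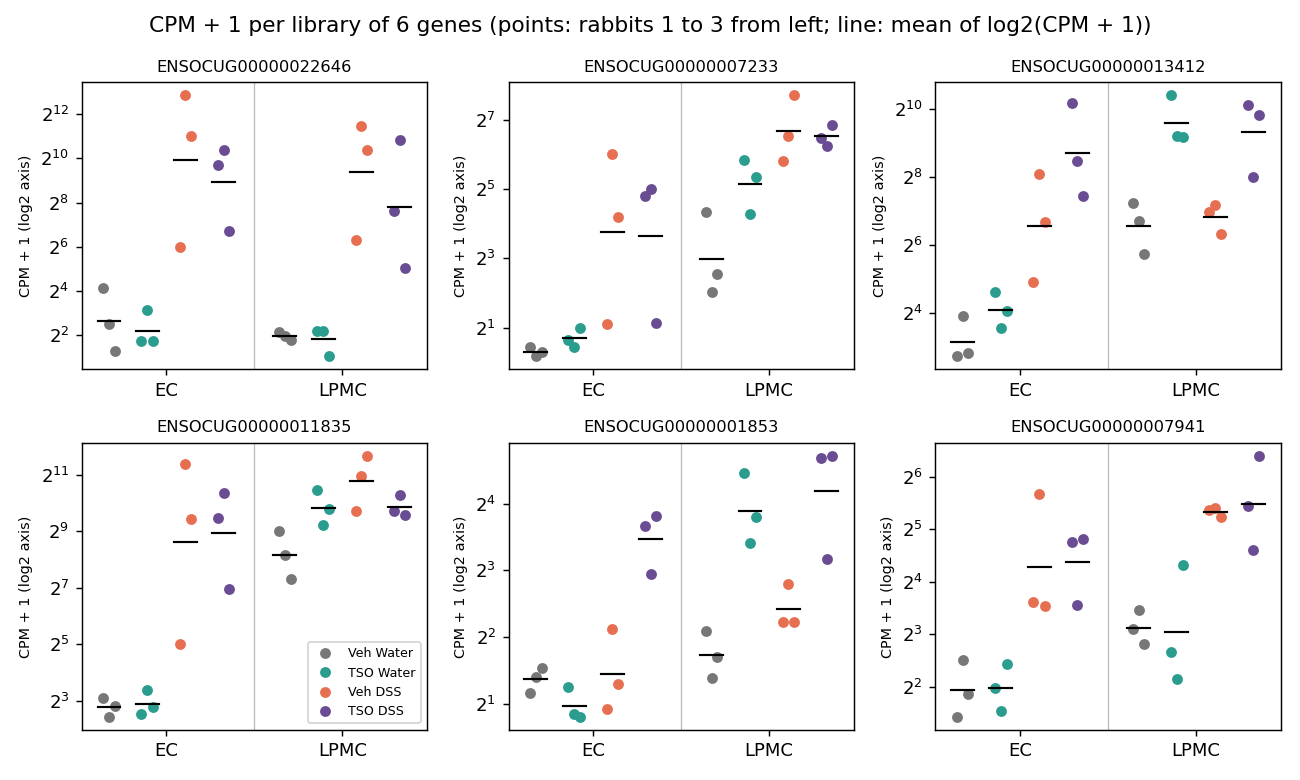
CPM + 1 on a log2 axis in each library for 6 members, with the 3 rabbits of each group as points from left to right and the mean of log2(CPM + 1) as a line. In ENSOCUG00000013412 the LPMC libraries with ova stand above those without, whereas in ENSOCUG00000022646 the libraries with DSS stand above those without in both cell types.

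A comparison of the 2 cell types within the Veh DSS rabbits uses no library of the rule. In these rabbits the median of EC minus LPMC over the members was -1.22 in rabbit 1, 0.59 in rabbit 2 and -0.60 in rabbit 3 on the log2(CPM + 1) scale, and LPMC was higher for 78, 21 and 64 members, against 55.6%, 41.7% and 49.9% of all present genes. Rabbit 2 thus differed in direction from the other two. limma on TMM-scaled recovered reads called 1 of the 88 members tested, lower in EC, against 2.95% of all genes called lower, and 0 higher, against 2.11%. At an unadjusted p under 0.05, 10 members were lower in EC, against 7.72%, and 0 higher, against 3.92%, while edgeR's quasi-likelihood test called 0 members, against 2.49% of all genes lower, and DESeq2 7 lower, against 6.46%. With the rabbit as a replicate block, limma called 2 members lower, against 4.99%. The members' median log2 difference was -0.65, with 62 of 88 below 0, and over all genes it was 0.03, with 47.3% below 0. Without rabbit 1 the members' median was -0.17, with 50 of 88 below 0, and without rabbit 2 it was -1.06, with 73 below 0.

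The member called was ENSOCUG00000025569 on chromosome 19. In Veh DSS it held 11.9, 51.3 and 26.5 CPM in EC and 164.6, 98.6 and 194.4 CPM in LPMC. The log2 difference was -2.51 ± 0.51 (SE, n = 3 rabbits, limma adjusted p = 0.042) in a fit that did not pair the 2 libraries of a rabbit. With the rabbit as a block the difference was also -2.51, with a limma adjusted p of 0.047. LPMC was higher in all 3 rabbits. The call was lost without rabbit 1 (difference -1.95, limma adjusted p = 0.14) and without rabbit 3 (difference -2.34, limma adjusted p = 0.40). It held 1.49, 3.03 and 2.28 CPM in EC of Veh Water and 37.6, 21.7 and 30.7 CPM in LPMC, so that LPMC was higher before treatment too.

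In the groups with ova the median of EC minus LPMC was below 0 in every rabbit, as it was in Veh Water and in Veh DSS rabbits 1 and 3. The rule used the libraries of TSO Water and TSO DSS, so the values below are a description. In TSO Water LPMC was higher than EC for 81, 85 and 80 members, against 46.3%, 69.6% and 53.8% of all present genes in rabbits 1, 2 and 3. The members' medians were -1.23, -1.39 and -1.65, against 0.08, -0.28 and -0.06 over all present genes. In TSO DSS LPMC was higher for 50, 52 and 74 members, against 40.7%, 48.5% and 64.4%. The members' medians there were -0.21, -0.20 and -1.37, against 0.11, 0.02 and -0.28 over all present genes.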

How the data were processed

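RNA of EC and LPMC was sequenced from polyA libraries without strand, so that overlapping genes on opposite strands cannot be told apart. Per the submitters' processing notes the genome was OryCun2.0 and FastQC was used; the aligner and the counting program are not given in the sources used here. The authors deposited 6 tables, each setting a treated group of 1 cell type beside Veh Water, with a normalized signal per gene and library, a presence mark, and their own log2 ratios, p-values and FDR, which were not used. The signal was reads times a factor per library. Whole reads were recovered, with 100% of 260516 values under 400 reads within 0.1 of a whole number, and CPM was computed from them.

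limma 3.58.1 (trend) in R 4.3.3 was fitted to log2(signal + 1) of all genes marked present in a table, for Veh DSS against Veh Water, and to log2(TMM-scaled reads + 1) of genes with 10 reads in 3 libraries, for EC against LPMC in Veh DSS. Fold changes on these scales understate changes of low genes. edgeR 4.0.16 and DESeq2 1.42.0 on the recovered reads, other scalings, pseudocounts and filters, all libraries in the fit, a replicate block, room A only, and each rabbit left out were the alternatives. The fits were tested on simulated counts in which all genes had the same dispersion. This does not show how they handle genes that vary between rabbits as the members did in EC of Veh DSS. EC and LPMC of a rabbit were paired by the rabbit's label, and their deviations from the group means correlated at 0.41, 0.40 and 0.42 over genes. The members and lists were chosen with earlier results of these data known. Genes named were the 8 members with the largest smaller-of-both change, the 5 with the highest mean CPM, the 4 with the largest and the 4 with the smallest mean Veh DSS change, the called members, and the genes next to the threshold. Lists of marker and pathway genes by symbol could not be read. Groups had 3 rabbits, which limits every p-value.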

Additional observations from a re-analysis of the deposited data

How the results depend on the processing

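The rule gave 89 genes, 87 with TMM scaling (78 shared), 85 with mitochondrial reads left out of CPM (77), 99 with a pseudocount of 0.1 (79) and 131 with room A only (79), and 81 to 142 with 1 rabbit left out (76 to 82 shared). Without Veh Water replicate 1 it gave 139, without TSO DSS replicate 2 134 and without replicate 3 142. Among members tested in EC of Veh DSS against Veh Water, 0 were called by limma, 62 by DESeq2 (3.43% of all genes higher), 70 at an unadjusted p (5.22%), and 0 to 38 with 1 rabbit left out (at most 2.2%). In LPMC 4 were called, 53 by DESeq2 (1.19%), 1 by edgeR's quasi-likelihood test (0.00891%), 2 with a pseudocount of 0.1 (0.0267%), 0 with all 12 libraries in the fit, 60 at an unadjusted p (2.17%) and 0 to 12 with 1 rabbit left out (at most 0.259%), when the members' median log2 fold change ran from 1.55 to 2.09. With the replicate number as a block, 0 were called in EC and 0 in LPMC, but these numbers join different rabbits, whose deviations correlated between -0.19 and 0.31. For EC against LPMC in Veh DSS, where numbers mark the rabbit, 1 member was called, 2 with the replicate block (4.99% of all genes lower), 7 by DESeq2 (6.46%), 7 with all 24 libraries (4.99%), 0 by edgeR (2.49%) and 0 to 3 with 1 rabbit left out (2.34% without replicate 2, where 3 were called). The median log2 differences of the members kept their sign under all alternatives run. The cause of these shifts was not tested. Depth limits low members most: 13 in EC and 8 in LPMC had under 10 reads in every Veh Water library.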
